A study of Mus musculus with 6 samples.

Results

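The factors that start and extend protein chains on the ribosome were followed here in mouse small intestine after ischemia/reperfusion (I/R), in which blood flow to the gut is blocked and then let back in. The set was chosen by name. It takes every gene whose symbol is Eif (eukaryotic initiation factor) or Eef (eukaryotic elongation factor) followed by a digit, without the 4 eIF2 kinases Eif2ak1 to Eif2ak4, which modify a factor but are not one. It held 62 of the 12006 genes tested. GENCODE M21 annotates 65 such symbols that are not pseudogenes, and 3 of them (Eef1akmt3, Eif2c5 and Eif4e1b) had no listed transcript. All 62 listed genes had a mean of at least 0.5 FPKM over the 6 libraries, and the lowest was Eif5a2 at 0.771 FPKM. Some names follow numbering rather than function. Eef2k, Eef2kmt and the Eef1akmt genes are a kinase and methyltransferases that act on elongation factors, and Eef1e1 belongs to the multi-tRNA synthetase complex.

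RNA sequencing covered 3 I/R libraries (replicates 6, 7 and 9) and 3 sham libraries (replicates 1, 3 and 5), all from small intestine of C57BL/6 mice 8 weeks old. The labels name no genotype, transgene or drug, so the I/R procedure is the one stated difference between the groups. They do not say whether each library is a separate animal, and p-values therefore measure the spread between these libraries. Values are FPKM, which are fragments scaled to transcript length and library size, summed over the listed transcripts of a gene. The tissue is a mixture, and in bulk RNA fewer cells of a type and less RNA per cell cannot be told apart. All 8 enterocyte markers were listed in all libraries, with a summed level of 6521 to 12164 FPKM in I/R and 7513 to 15055 FPKM in sham. Eif2s3y, which lies on the Y chromosome, was between 25.5 and 39.95 FPKM in I/R and between 24.7 and 28.4 FPKM in sham.

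Translation starts when eIF2 brings the initiator tRNA to the small ribosomal subunit, which eIF3, eIF1 and eIF1A hold open while it scans the mRNA. The cap complex eIF4F (the cap binder eIF4E, the helicase eIF4A and the scaffold eIF4G) recruits the mRNA, and 4E-binding proteins can hold eIF4E away from it. In stressed cells, kinases phosphorylate the alpha subunit of eIF2, which then blocks its exchange factor eIF2B and slows initiation. The elongation factors eEF1A and eEF2 then deliver aminoacyl-tRNAs and move the ribosome along. All values below are mRNA levels and say nothing of phosphorylation or protein.

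Comparing I/R with sham asked whether these mRNAs moved with injury. Most were somewhat higher in I/R, none by itself past the threshold corrected for all genes. By the sign of the log2 fold change, which compares means of log2(FPKM + 1) and is what higher or lower mean refers to throughout, 54 of the 62 genes were higher in I/R (87.1%, against 62.6% of all genes tested) and 8 were lower, namely Eef1akmt4, Eif1a, Eif1ad, Eif1b, Eif2s2, Eif4a2, Eif4ebp1 and Eif4h. The median log2 fold change was 0.27 over the 62 genes and 0.12 over all genes tested. Median-ratio scaling removes a shift common to all genes by construction. After it, the medians were 0.14 for the 62 genes and 0.01 for all genes. Then 44 of the 62 (71%, against 51.1% of all genes) were above 0.

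By limma with Benjamini-Hochberg adjustment, 0 of the 62 genes passed an adjusted p of 0.05 in either direction. Across all genes, 0.0167% passed as higher and 0.0167% as lower. At an unadjusted p below 0.05, 12 of the 62 (19.4%) were higher in I/R, against 5.56% of all genes tested, and 0 were lower, against 3.38%. After median-ratio scaling those counts were 8 higher (12.9%, against 3.81% of all genes) and 0 lower (against 5.09%). Eif2s1 and Eif2b3 also reached a fold of 2, 3.23% of the genes against a background of 1.92%, and 0 did so as lower (background 0.975%). In 20 of the 62 genes (32.3%) all I/R values lay above all sham values, against 10.6% of all genes. In 0 genes did they all lie below, against 5.89%. The log2 fold changes of these 20 genes ran from 0.23 to 1.39, and 13 of them were at least 0.5. Over all 62 genes, 48 log2 fold changes were smaller than 0.5 in size.

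**Figure D1:**
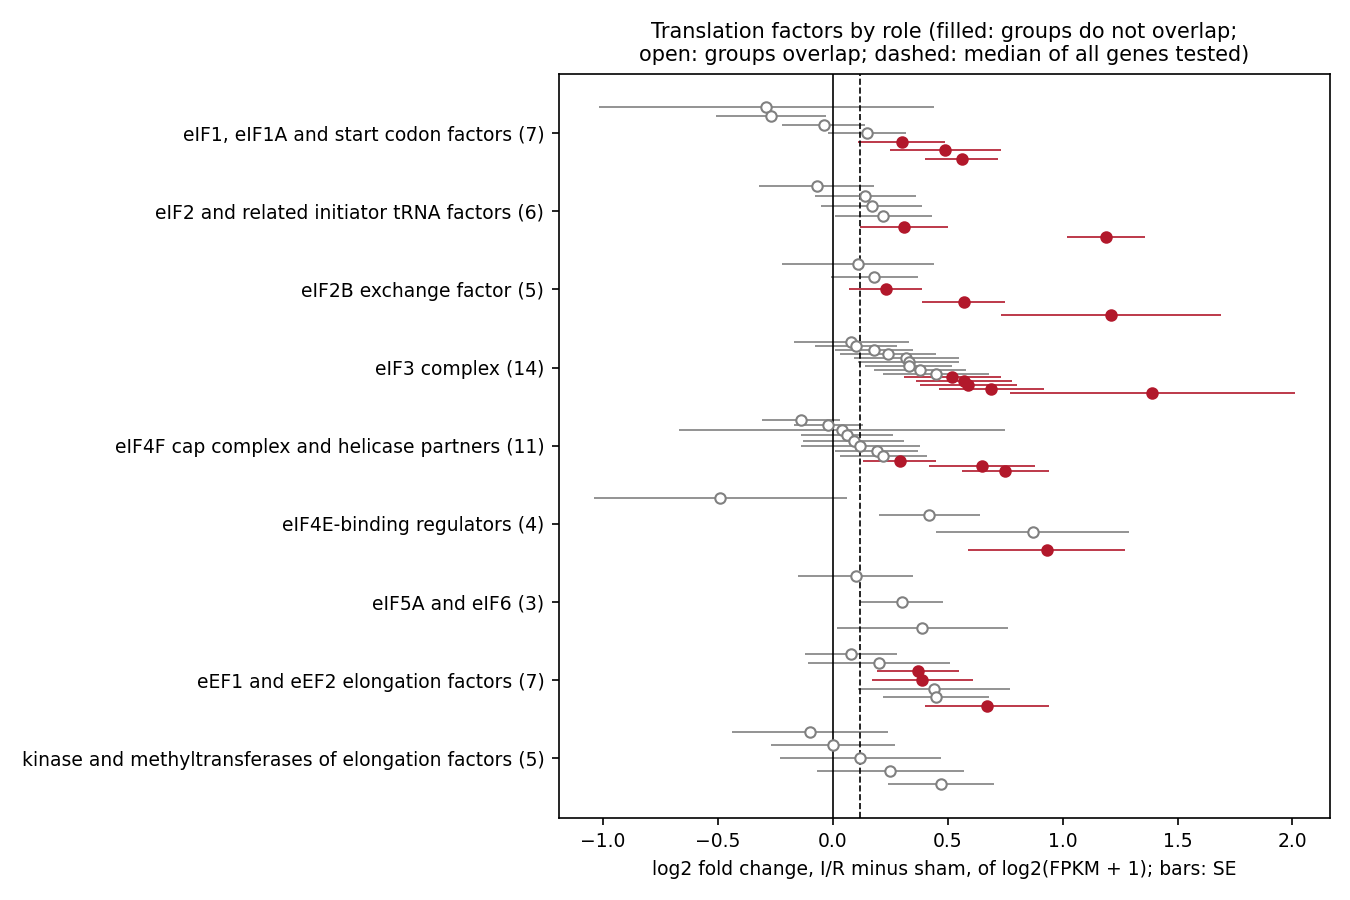
Log2 fold change (I/R minus sham, of FPKM plus 1) of the 62 translation factors on the x axis, grouped by role on the y axis, with the number of genes in parentheses and bars for the standard error. Filled points mark the 20 genes whose groups do not overlap, and all of them lie to the right of 0; the dashed line is the median of all genes tested, 0.12.

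Eif2s1 encodes the alpha subunit of eIF2, the one that stress kinases phosphorylate. It showed the clearest difference of the set. Its level was 20.2, 20.1 and 20.6 FPKM in the I/R libraries, against 7.55, 9.73 and 7.94 FPKM in the sham libraries. The I/R values were nearly identical, and all lay far above the sham values. The mean was 20.3 ± 0.224 FPKM in I/R and 8.41 ± 1.16 FPKM in sham (SD, n = 3 each). This was a 2.28-fold difference, 1.19 ± 0.17 (SE) on the log2 scale, with a 95% interval of 0.77 to 1.60 on the log2 scale, and the limma adjusted p was 0.137. Under the 16 alternative settings the log2 fold change stayed between 1.05 and 1.29 and the adjusted p between 0.0926 and 0.403. One transcript of Eif2s1 was listed, with 8 exons on chromosome 12 (mm10, 78861819 to 78887010, plus strand).

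The other subunits of eIF2 did not show this difference. Eif2s2, the beta subunit, was at 94.1, 114.5 and 73.9 FPKM in I/R, against 124.98, 90.8 and 80.8 FPKM in sham, with wholly overlapping groups (log2 fold change -0.07 ± 0.25, limma adjusted p = 0.934). The gamma subunit comes from an X and a Y copy. Eif2s3x was at 32.8, 31.00 and 29.5 FPKM in I/R, against 26.5, 19.8 and 28.9 FPKM in sham, a narrow separation (log2 fold change 0.31 ± 0.19, limma adjusted p = 0.632). Eif2s3y overlapped between the groups, with a log2 fold change of 0.22 ± 0.21. Within a library, the ratio of Eif2s1 to Eif2s2 was 0.215, 0.176 and 0.278 in I/R, against 0.0604, 0.107 and 0.0982 in sham, so the alpha subunit mRNA was below the beta subunit mRNA in all 6 libraries and closer to it in I/R. The ratio of Eif2s1 to Eif2s3x was 0.617, 0.649 and 0.698 in I/R, against 0.285, 0.49 and 0.274 in sham. These 2 ratios were chosen after the values were seen and are given with no test. Eif2a and Eif2d, which can bring initiator tRNA without eIF2, had log2 fold changes of 0.17 and 0.14 with overlapping groups.

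eIF2B, the exchange factor that recharges eIF2 with GTP, has 5 subunits. All 5 had a higher mean in I/R, with Eif2b1 turning to below 0 after median-ratio scaling, after quantile normalization, without I/R replicate 9 and without sham replicate 3. The groups were separated in 3 of the 5 (60%, against 10.6% of all genes). Eif2b4, the delta subunit, was at 13.5, 11.1 and 13.1 FPKM in I/R, against 8.31, 7.31 and 8.87 FPKM in sham (log2 fold change 0.57 ± 0.18, limma adjusted p = 0.516). Each I/R library was above each sham library for this sum of 3 transcripts, but the most abundant of them overlapped between the groups. Over the alternatives the Eif2b4 log2 fold change ran from 0.33 to 0.65. Eif2b3, the gamma subunit, was at 5.21, 3.93 and 5.69 FPKM in I/R, against 3.30, 0.216 and 2.13 FPKM in sham (log2 fold change 1.21 ± 0.48, limma adjusted p = 0.543). Much of its size came from sham replicate 3, and over the alternatives its log2 fold change ran from 0.68 to 1.90. Eif2b2 was separated with a log2 fold change of 0.23, and Eif2b1 and Eif2b5 overlapped.

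Among the factors that set the start codon, Eif5, the GTPase activator of eIF2, was at 97.4, 95.03 and 95.8 FPKM in I/R, against 72.97, 56.4 and 66.3 FPKM in sham (log2 fold change 0.56 ± 0.16, limma adjusted p = 0.484). The I/R libraries were close together and all above sham. It had 2 listed transcripts. Eif1ax and Eif5b, which encode eIF1A and the subunit-joining GTPase eIF5B, were also separated, with log2 fold changes of 0.49 and 0.30. The other genes with Eif1 symbols did not move in 1 direction. Eif1a stood apart by its spread, which was noticed after its values were seen, at 37.9, 41.3 and 5.07 FPKM in I/R, against 20.7, 27.1 and 29.2 FPKM in sham. Here I/R replicate 9 was the lowest of all libraries and the other I/R libraries the highest, so the mean difference (log2 fold change -0.29 ± 0.73) describes neither. Without I/R replicate 9, Eif1a had an unadjusted limma p below 0.05 as higher. That library held the low I/R value, so leaving it out favours this outcome and no conclusion is drawn from it.

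eIF3, the large scaffold of the initiation complex, had 14 listed genes. All 14 had a higher mean in I/R, although Eif3c and Eif3h fell on the other side of 0 after median-ratio scaling and without sham replicate 3. The median log2 fold change was 0.35, and 5 of the 14 genes separated the groups (35.7%, against 10.6% of all genes). Sham replicate 3 was the lowest library in 13 of the 14 (92.9%, against 33.9% of all genes). Eif3a, the largest core subunit, was at 48.9, 38.8 and 53.6 FPKM in I/R, against 33.5, 21.9 and 31.3 FPKM in sham (log2 fold change 0.69 ± 0.23, limma adjusted p = 0.516). Eif3g, an RNA-binding subunit, was at 65.1, 59.1 and 68.00 FPKM in I/R, against 41.04, 33.5 and 53.9 FPKM in sham (log2 fold change 0.59 ± 0.21, limma adjusted p = 0.533). Neither overlapped between the groups. Eif3b, a scaffold subunit, was at 42.1, 38.00 and 48.2 FPKM in I/R, against 30.3, 23.02 and 36.1 FPKM in sham (log2 fold change 0.52 ± 0.21, limma adjusted p = 0.554), a gap narrower than the spread within either group. The remaining subunits, Eif3c to Eif3f, Eif3h, Eif3i and Eif3k to Eif3m, had log2 fold changes from 0.08 to 0.45 with overlapping groups.

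The loosely bound subunit eIF3j comes from 2 mouse genes with nearly the same sequence. Of the 2280 windows of 100 bases in the listed transcript of Eif3j2, 84% also occur in that of Eif3j1, so reads may have been divided between them and both levels are uncertain. Eif3j1 was at 12.8, 11.4 and 11.00 FPKM in I/R, against 7.55, 6.08 and 9.37 FPKM in sham (log2 fold change 0.57 ± 0.21, limma adjusted p = 0.537). Eif3j2 was at 7.26, 6.29 and 6.01 FPKM in I/R, against 4.02 and 3.64 FPKM in sham replicates 1 and 3, and was listed at 0 in sham replicate 5 (log2 fold change 1.39 ± 0.62, limma adjusted p = 0.575). Both genes were higher in each I/R library than in any sham library. Their ratio, Eif3j1 to Eif3j2, was 1.76, 1.82 and 1.83 in I/R, against 1.88 and 1.67 in sham replicates 1 and 3. It did not separate the groups. An exact 0 in FPKM can be a failed estimate, and the Eif3j2 log2 fold change ran from 0.64 to 2.51 over the alternatives.

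**Figure D2:**
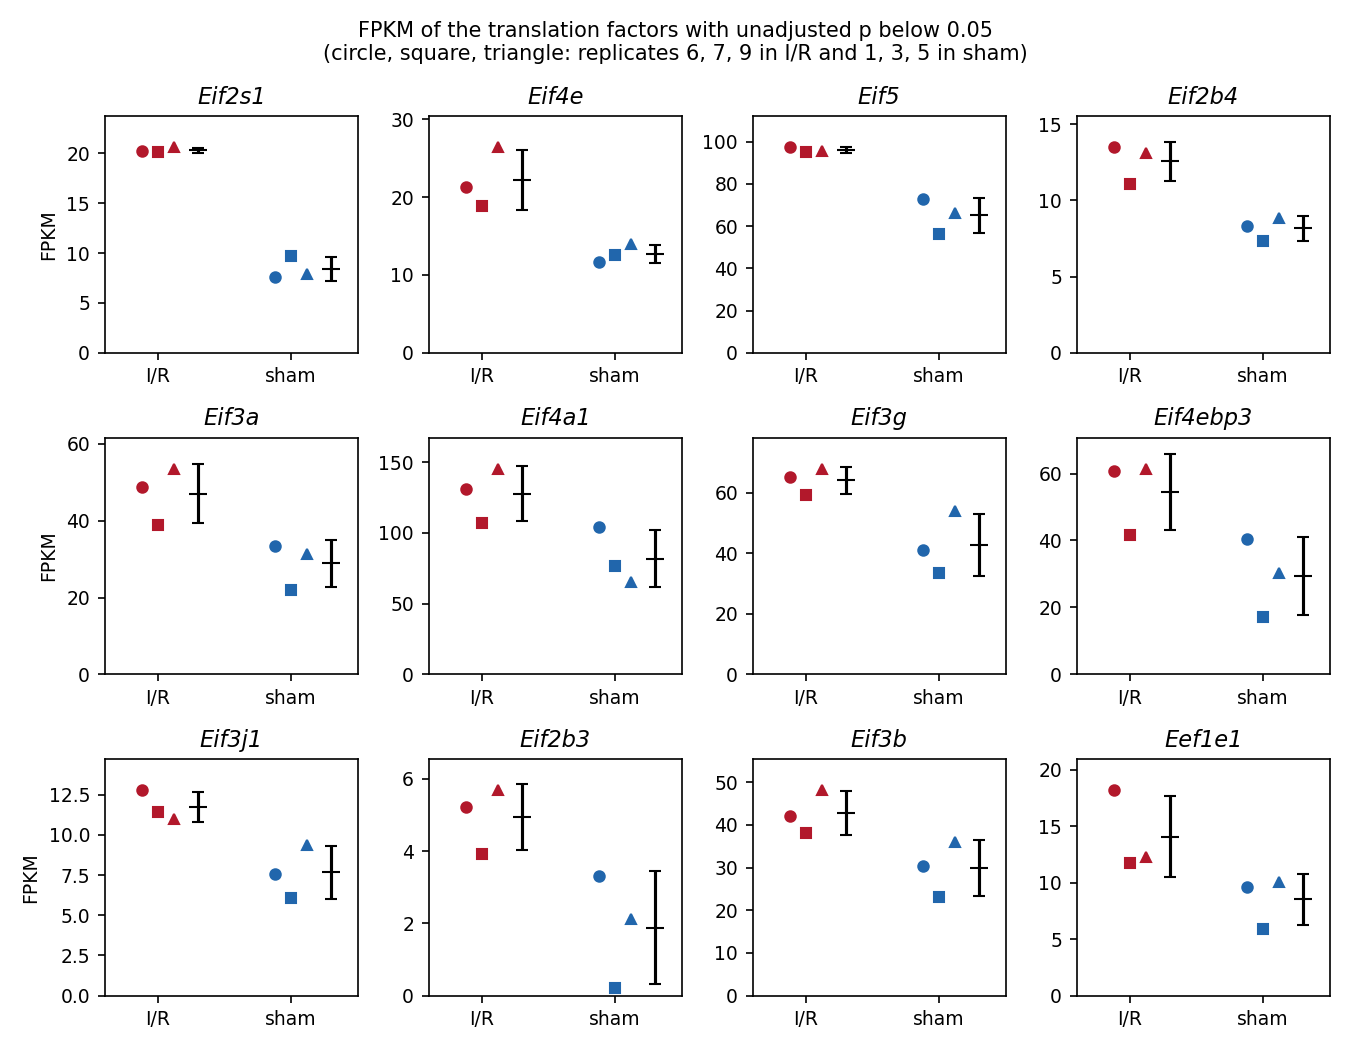
FPKM (y axes, each from 0) of the 12 translation factors with an unadjusted p below 0.05, by library, with I/R left of sham in each panel. Coloured symbols are libraries, and black bars are the mean and SD of 3 libraries. In all 12 panels the I/R libraries lie above the sham libraries, with the widest gap relative to the spread for Eif2s1.

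In the cap complex, the cap-binding protein gene Eif4e was at 21.3, 18.8 and 26.4 FPKM in I/R, against 11.6, 12.5 and 13.98 FPKM in sham. The groups did not overlap, and the mean was 22.2 ± 3.86 FPKM in I/R and 12.7 ± 1.19 FPKM in sham (SD, n = 3 each). This was a 1.68-fold difference, 0.75 ± 0.19 (SE) on the log2 scale (limma adjusted p = 0.467). Its relatives Eif4e2 and Eif4e3 had log2 fold changes of 0.06 and 0.04 with overlapping groups. The scaffolds Eif4g1 and Eif4g3 also overlapped, at 0.22 and 0.12, and Eif4g2, a relative that lacks the eIF4E-binding part, was separated at 0.29. Over the 11 genes grouped under this role the median log2 fold change was 0.12, the same as over all genes. They include Eif4a3 and the relatives Eif4e2, Eif4e3 and Eif4g2, so this is not the median of the cap complex alone.

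The eIF4A helicase of this complex comes from Eif4a1 or Eif4a2. Eif4a1 was at 130.7, 107.1 and 145.4 FPKM in I/R, against 103.9, 76.6 and 64.9 FPKM in sham (log2 fold change 0.65 ± 0.23, limma adjusted p = 0.533). The lowest I/R value was just above the highest sham value. Eif4a2 was at 53.1, 58.9 and 47.3 FPKM in I/R, against 65.2, 58.6 and 52.1 FPKM in sham, with overlap (log2 fold change -0.14 ± 0.17, limma adjusted p = 0.784). When only the most abundant transcript was used, the Eif4a2 value was 0.32. The ratio of Eif4a2 to Eif4a1 was 0.406, 0.55 and 0.325 in I/R, against 0.628, 0.765 and 0.803 in sham, so Eif4a1 was the more abundant in all 6 libraries and by a larger margin in each I/R library. The larger margin holds for the sum of the 5 listed Eif4a2 transcripts. The most abundant of these was at 29.6, 34.9 and 34.9 FPKM in I/R, against 34.1, 20.1 and 26.4 FPKM in sham. With that transcript alone, the ratio to Eif4a1 would not separate the groups. The most abundant listed transcripts of Eif4a1 and Eif4a2 share no window of 100 bases. Pdcd4, an inhibitor of eIF4A, was at 56.4, 51.4 and 43.6 FPKM in I/R, against 34.9, 18.3 and 27.3 FPKM in sham (log2 fold change 0.92 ± 0.26, limma adjusted p = 0.484).

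The 4E-binding proteins, which compete with eIF4G for eIF4E, did not move together. Eif4ebp3 was at 60.8, 41.5 and 61.5 FPKM in I/R, against 40.5, 17.2 and 30.2 FPKM in sham (log2 fold change 0.93 ± 0.34, limma adjusted p = 0.533), and its lowest I/R value was only slightly above its highest sham value. Eif4ebp2 overlapped, with a log2 fold change of 0.87 ± 0.42. Eif4ebp1 was at 4.29, 12.7 and 13.3 FPKM in I/R, against 14.8, 6.63 and 22.8 FPKM in sham (log2 fold change -0.49 ± 0.55, limma adjusted p = 0.768), and the libraries of each group were spread over most of the range. The ratio of Eif4ebp1 to Eif4e was 0.201, 0.675 and 0.504 in I/R, against 1.27, 0.53 and 1.63 in sham, and the groups overlapped through sham replicate 3. Eif4ebp3 was the most abundant of the 3 in all 6 libraries. Eif4enif1, an eIF4E transporter, had a log2 fold change of 0.42 ± 0.22 with overlap.

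Eif4ebp1 is also a known target of ATF4, the transcription factor whose mRNA is translated when eIF2 alpha is phosphorylated. Atf4 itself was at 180.5, 31.5 and 46.9 FPKM in I/R, against 166.3, 220.1 and 213.7 FPKM in sham, with I/R replicate 6 among the sham values. Its target Trib3 was at 9.87, 5.41 and 14.5 FPKM in I/R, against 16.5, 24.9 and 25.6 FPKM in sham. Chac1, also an ATF4 target, was at 4.30, 1.46 and 3.16 FPKM in I/R, against 26.2, 22.9 and 23.3 FPKM in sham. Its log2 fold change was -2.73 ± 0.31, and that of Sesn2, another target, was -0.62 ± 0.23. Trib3, Chac1 and Sesn2 were lower in every I/R library than in any sham library, as were 5.89% of all genes. Asns and Ddit3 overlapped. Of the enzymes that act on eIF2 alpha itself, none of the 4 kinases and neither phosphatase subunit separated the groups. Ppp1r15a, the stress-induced phosphatase subunit, was at 8.11, 12.6 and 3.71 FPKM in I/R, against 6.21, 5.02 and 4.98 FPKM in sham (log2 fold change 0.39 ± 0.39, limma adjusted p = 0.745).

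Eef1a1 and Eef2 had the highest levels of the set. Eef1a1, which carries aminoacyl-tRNA to the ribosome, was at 2112.9, 1846.9 and 1847.8 FPKM in I/R, against 1736.1, 899.2 and 1859.7 FPKM in sham (log2 fold change 0.44 ± 0.33, limma adjusted p = 0.679). Sham replicate 3 was well below the other libraries, and sham replicate 5 overlapped with I/R. Eef2, the translocation factor, was at 495.3, 417.3 and 464.01 FPKM in I/R, against 430.2, 369.02 and 509.3 FPKM in sham (log2 fold change 0.08 ± 0.20, limma adjusted p = 0.9), and its sign turned under both median-ratio scaling and quantile normalization. The eEF1B subunits, which recharge eEF1A, sat close to the boundary between groups. Eef1b2 was at 218.97, 195.4 and 195.5 FPKM in I/R, against 160.5, 132.5 and 182.1 FPKM in sham (log2 fold change 0.37 ± 0.18, limma adjusted p = 0.601). Eef1g was at 183.8, 184.3 and 190.5 FPKM in I/R, against 148.04, 106.9 and 180.9 FPKM in sham (log2 fold change 0.39 ± 0.22, limma adjusted p = 0.624). Both were separated, Eef1g by a gap far smaller than the spread in sham. Eef1d was at 0.45 ± 0.23 on the same log2 scale with overlap.

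Eef1e1, the synthetase complex component, was at 18.2, 11.7 and 12.3 FPKM in I/R, against 9.59, 5.94 and 10.04 FPKM in sham (log2 fold change 0.67 ± 0.27, limma adjusted p = 0.554), with I/R replicate 6 well above the rest. Eef1a2, the eEF1A form of muscle and neurons, was at 1.44, 1.64 and 0.487 FPKM in I/R, against 1.17, 1.02 and 0.435 FPKM in sham (log2 fold change 0.20 ± 0.31, limma adjusted p = 0.83). Its ratio to Eef1a1 was at most 0.00113 in any library. The eEF2 kinase gene Eef2k had a log2 fold change of 0.00 ± 0.27, and the 4 methyltransferase genes ran from -0.10 to 0.47, all with overlapping groups.

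Eif5a encodes eIF5A, which helps the ribosome through difficult peptide bonds and carries the modified residue hypusine. Eif5a was at 147.4, 133.1 and 160.4 FPKM in I/R, against 124.9, 101.3 and 133.5 FPKM in sham (log2 fold change 0.30 ± 0.18, limma adjusted p = 0.632), where the highest sham value fell just inside the I/R range. Eif5a2 was at 1.36, 0.950 and 0.570 FPKM in I/R, against 1.47, 0.130 and 0.138 FPKM in sham (log2 fold change 0.39 ± 0.37, limma adjusted p = 0.725), with sham replicate 1 the highest of all. Eif6, which keeps the large ribosomal subunit from joining too early, was at 174.2, 158.3 and 250.6 FPKM in I/R, against 148.6, 217.5 and 171.7 FPKM in sham (log2 fold change 0.10 ± 0.25, limma adjusted p = 0.9). It was the one of the 6 most abundant genes in which sham replicate 3 was above the other sham libraries. The 39 genes not given library by library under the naming rule had log2 fold changes from -0.29 to 0.87 and limma adjusted p from 0.592 to 1. Of these, 5 separated the groups, all as higher (12.8%, against 10.6% of all genes). The naming rule had already taken out separated genes with a log2 fold change of at least 0.5, so these shares cannot be compared.

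The libraries did not contribute equally. Sham replicate 3 was the lowest library in 43 of the 62 genes (69.4%), against 33.9% of all genes tested, and the highest in 0. An I/R library was the highest in 48 of the 62 (77.4%, against 57.4% of all genes). Sham replicate 3 was also low across the whole table, and its median-ratio factor of 0.8353 was the smallest of the 6. After that scaling its median deviation over the 62 genes was -0.15, the same as that of sham replicate 1, while sham replicate 5, at 0.07, lay with the I/R libraries at 0.07, 0.08 and 0.14. Scaling thus left sham replicates 1 and 3 low and placed sham replicate 5 at the level of I/R replicate 6. Summed over the 62 genes, the factors made up 1.80%, 1.60% and 1.62% of all FPKM in the I/R libraries, against 1.46%, 1.09% and 1.56% in the sham libraries. Without Eef1a1, which dominates the sum, the shares were 1.14%, 1.02% and 1.07% in I/R, against 0.931%, 0.802% and 0.989% in sham.

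**Figure D3:**
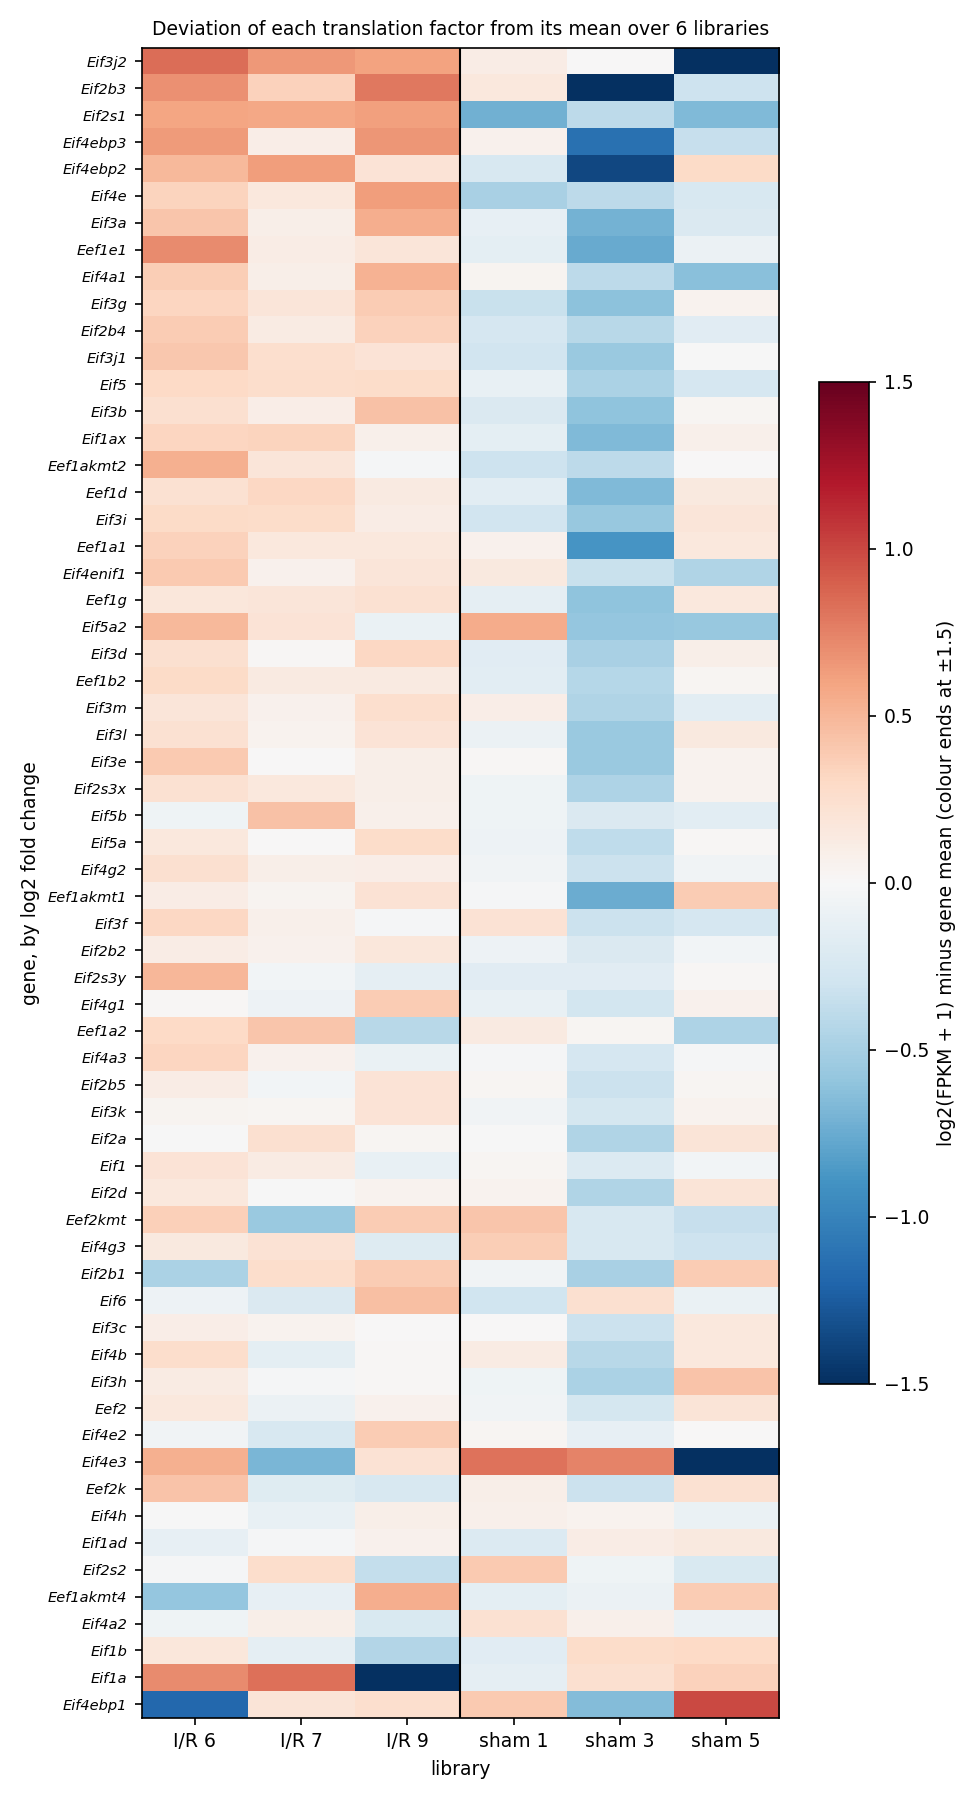
Deviation of log2(FPKM + 1) of each translation factor (rows, by decreasing log2 fold change) from its mean over 6 libraries (columns, I/R left of the black line), with red above and blue below the mean. Sham replicate 3 is the lowest library in 43 of the 62 rows, and sham replicate 5 is mixed.

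The counts depended on which libraries were included. Without sham replicate 3, 6 of the 62 genes (9.68%) had an unadjusted p below 0.05 as higher, against 3.39% of all genes, and the medians were 0.18 for the 62 genes and 0.05 for all genes. Without I/R replicate 6 the count was 3 (4.84%, against 3.24%) and without I/R replicate 9 it was 4 (6.45%, against 4.87%), shares close to those of all genes. Eif2s1, Eif4e and Eif5 stayed below an unadjusted p of 0.05 in all 16 alternatives. The other 9 of the 12 genes lost it in at least 1. All 12 kept their direction with 1 library left out, as genes with separated groups must. Eif3a ran from 0.51 to 0.83, Eif3b from 0.35 to 0.67 and Eif3g from 0.43 to 0.77 on the log2 scale, each lowest without sham replicate 3. With 2 libraries in a group, a lost p does not show a smaller difference.

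Markers of several cell types also differed between libraries. The summed level of the crypt and proliferation markers was 172.6 to 236.6 FPKM in I/R and 82.5 to 221.9 FPKM in sham, with sham replicate 3 the lowest and sham replicate 5 inside the I/R range, and 7 of the 8 had a higher mean in I/R. Olfm4 alone gave 110.5 FPKM of the sum in sham replicate 5. Taken singly, Mki67, Top2a, Ccnb1, Cdk1 and Rrm2 were higher in every I/R library than in any sham library, as were 10.6% of all genes. Rrm2, for example, was at 20.3, 21.5 and 29.3 FPKM in I/R, against 13.7, 2.28 and 10.04 FPKM in sham. Lgr5, Olfm4 and Pcna overlapped. Enterocyte markers had their highest sum in sham replicate 3, and 3 of the 8 had a higher mean in I/R. All 4 B and plasma cell markers had a higher mean in I/R, with sums of 211.3 to 433.00 FPKM in I/R and 64.3 to 365.7 FPKM in sham, and so had all 4 listed red cell markers, with sums of 62.9 to 185.3 FPKM in I/R and 18.8 to 92.1 FPKM in sham. Sham replicate 3 had the lowest sum of both lists. All 5 goblet cell markers had a lower mean in I/R, with sums of 1070.8 to 1929.98 FPKM in I/R and 1583.3 to 3116.2 FPKM in sham. Of all the lists, only the neutrophil markers had sums that separated the groups. These were low, at 4.58 to 16.8 FPKM in I/R and 1.52 to 3.50 FPKM in sham. Of the 4 listed, 3 averaged higher in I/R and 1 lower. Smooth muscle markers summed to 27.4 FPKM in I/R replicate 9, against 817.2 and 762.4 FPKM in replicates 6 and 7. Paneth cell markers summed to 1777.1 FPKM in sham replicate 5, against 44.6 and 47.8 FPKM in replicates 1 and 3. The part of these cell types in the levels of the translation factors was not tested.

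**Figure D4:**
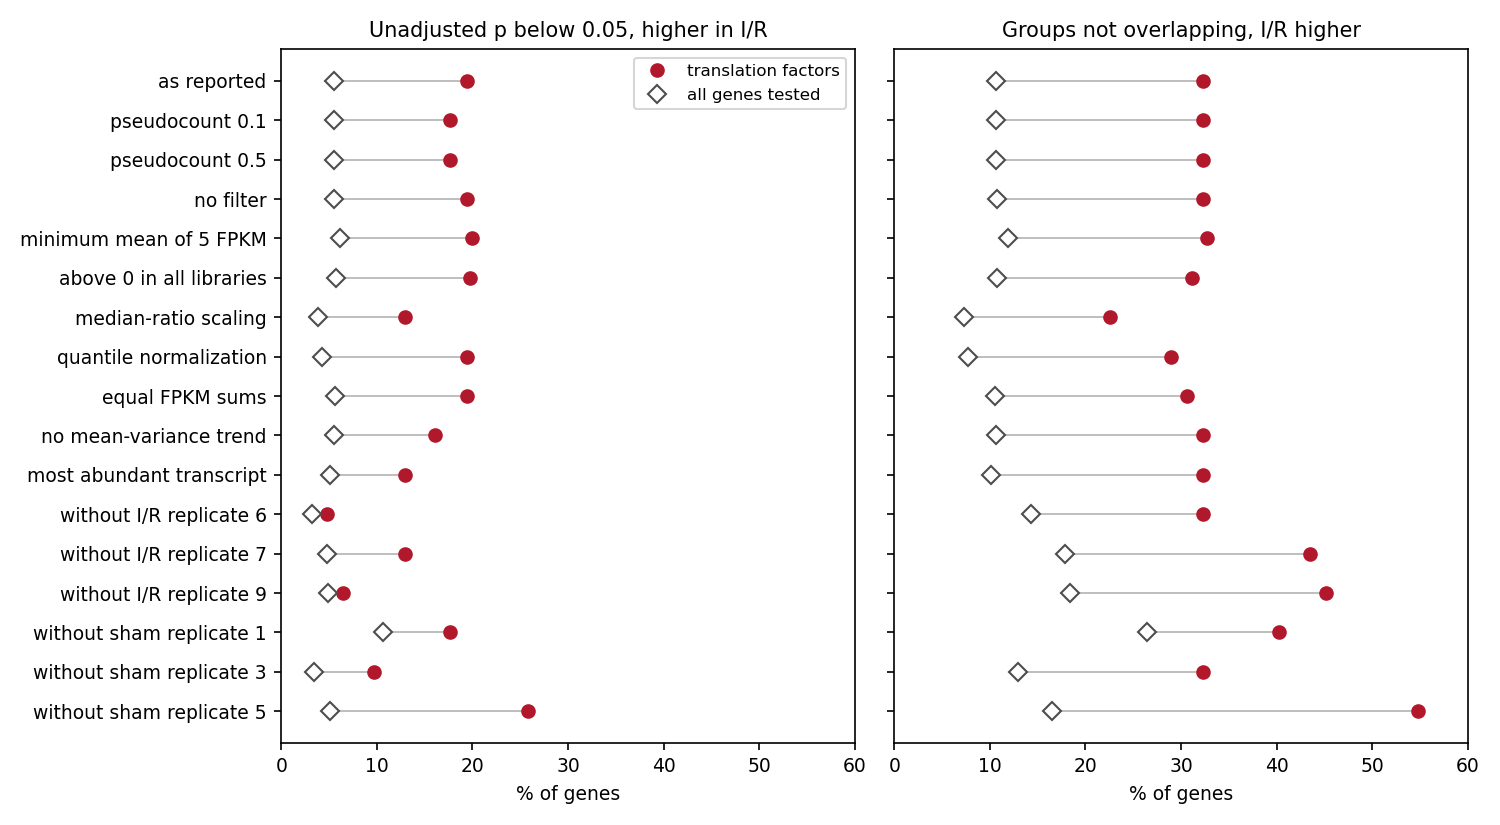
Percent of the translation factors (filled circles) and of all genes tested (open diamonds) that were higher in I/R at an unadjusted p below 0.05 (left) or with groups that do not overlap (right), for the values as reported and each alternative setting. The circles lie right of the diamonds throughout, closest without I/R replicate 6 (4.84% against 3.24%) and without I/R replicate 9 (6.45% against 4.87%) on the left.

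Other genes of the translation machinery, 52 in a list of regulators, helper, termination and mitochondrial factors, were compared in the same fit. Of the 51 tested, 38 averaged higher in I/R (74.5%, against 62.6% of all genes) and 13 lower, with a median log2 fold change of 0.19, against 0.12 over all genes. At an unadjusted p below 0.05, 7 were higher (13.7%, against 5.56%) and 1 was lower (1.96%, against 3.38%). All I/R values lay above all sham values in 15 of the 51, beside 10.6% of all genes and 32.3% of the 62 genes. In 1 gene they all lay below, beside 5.89% of all genes. The 1 gene that passed the adjusted threshold was Mcts2, which was lower. Mcts2, a single-exon relative of the reinitiation factor Mcts1, had a listed value of 0 in each I/R library, against 6.19, 6.25 and 6.37 FPKM in sham (limma adjusted p = 0.0145). A 0 here can be a failed estimate. Ddx3x, a helicase that works with eIF4F, was at 104.7, 102.7 and 112.2 FPKM in I/R, against 22.9, 27.2 and 78.4 FPKM in sham, with sham replicate 5 nearer to I/R than to the other sham libraries (log2 fold change 1.51 ± 0.45, limma adjusted p = 0.484).

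Abce1, which splits ribosomes for reuse, was at 22.5, 18.02 and 21.6 FPKM in I/R, against 12.7, 7.21 and 13.6 FPKM in sham (log2 fold change 0.87 ± 0.26, limma adjusted p = 0.484). Mtif3, a mitochondrial initiation factor, was at 7.64, 8.74 and 7.22 FPKM in I/R, against 3.22, 2.98 and 4.86 FPKM in sham (log2 fold change 0.94 ± 0.23, limma adjusted p = 0.441). Neither overlapped between the groups. Rheb, the GTPase that activates mTORC1, was at 31.3, 27.3 and 29.6 FPKM in I/R, against 23.4, 17.8 and 19.1 FPKM in sham (log2 fold change 0.53 ± 0.17, limma adjusted p = 0.517). Mtor itself, picked after its values were seen, was also separated, narrowly, at 7.69, 7.60 and 7.44 FPKM in I/R, against 6.88, 6.91 and 6.63 FPKM in sham (log2 fold change 0.14 ± 0.17, limma adjusted p = 0.79), and the other 8 genes of the mTORC1 and S6 kinase list overlapped. The poly(A)-binding protein gene Pabpc4 and the diphthamide enzyme gene Dph3 were separated too, with log2 fold changes of 0.59 and 0.72.

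For the promoters, 48 of the 62 genes matched a RefSeq window (build GRCm38.p6) from 250 bases before to 50 after the annotated start, and each motif was searched on both strands. For these genes the window nearest the start of the most abundant listed transcript was used. For the comparison shares, each gene gave its window with the lowest start coordinate, so the windows were not chosen alike. The E-box CACGTG, its own reverse complement, was in 12 of the 48 windows (25%), against 9.88% of the 9404 windows of genes tested and 7.09% of all 27025 promoters. The GC box (GGGCGG or CCGCCC) was in 77.1%, against 63.2% and 35.6%, and the core of the cyclic AMP response element (TGACG or CGTCA) in 45.8%, against 31.2% and 20.7%. The CCAAT box (CCAAT or ATTGG) was in 25%, against 38.6% and 37.8%. The other motifs searched were closer to the share of genes tested. The TATA box was in 10.4%, against 7.59% of the windows of genes tested and 14.1% of all promoters. The ATF4-C/EBP element was in 1 of the 48 windows (2.08%), against 2.21% and 4.06%. The NRF1 palindrome was also in 1 (2.08%), against 2.05% and 0.962%. The E-box was not limited to genes that differed. Of the 12 genes with an unadjusted p below 0.05, 10 had a window and 2 of these, Eif3a and Eif4a1, held an E-box, and the E-box also stood in the windows of Eef2, Eef2k, Eif1b and Eif4h, whose log2 fold changes were between -0.27 and 0.08. The 2 windows are shown because they belong to the 2 genes that had both the motif and separated groups. Letters run 5′ to 3′ on the gene's minus strand, and capitals mark the E-box (Eif3a chr19:60790644-60790943, Eif4a1 chr11:69672374-69672673).
Eif3a: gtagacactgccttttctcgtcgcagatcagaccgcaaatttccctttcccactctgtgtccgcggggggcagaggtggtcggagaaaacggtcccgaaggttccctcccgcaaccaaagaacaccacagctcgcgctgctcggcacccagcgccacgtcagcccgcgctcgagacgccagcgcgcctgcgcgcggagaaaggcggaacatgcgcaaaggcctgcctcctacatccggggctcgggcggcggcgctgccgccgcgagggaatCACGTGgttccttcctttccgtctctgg
Eif4a1: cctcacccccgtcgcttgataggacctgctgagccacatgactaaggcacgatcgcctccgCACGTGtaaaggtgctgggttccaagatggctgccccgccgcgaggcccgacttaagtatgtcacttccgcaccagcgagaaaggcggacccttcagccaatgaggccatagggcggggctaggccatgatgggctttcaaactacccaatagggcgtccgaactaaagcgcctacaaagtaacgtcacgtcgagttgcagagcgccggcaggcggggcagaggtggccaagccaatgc
In the Eif3a window the E-box lies in the last 50 bases, after the RefSeq start, and in the Eif4a1 window well upstream of it. A match in letters is not evidence that a factor binds there.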

How the data were processed

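RNA was extracted with Trizol and made into stranded, random-primed libraries (dUTP method) from 3 I/R and 3 sham samples. Of the tools, cutadapt, StringTie, HISAT2 2.0.4 and mm10 appear in the submitters' processing notes, while no annotation is given in the sources used here. The deposited values are FPKM per transcript, computed by the authors. Of the 19763 listed transcripts, none averaged under 0.5 FPKM in both groups, as tested on the values. FPKM keep no read counts, so depth and its precision are unknown. FPKM summed to between 315726 and 330814 per library, and 5.05% to 7.78% of values were 0.

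Transcript identifiers, without version, were matched to GENCODE M21 (19702 matched, 61 did not), and FPKM were summed per gene. The 62 genes had 130 listed transcripts, and 35 genes had 1. Genes averaging 0.5 FPKM or more (12006 of 12388) were tested with limma 3.58.1 in R 4.3.3 (lmFit, eBayes with trend) on log2-transformed FPKM after adding a pseudocount of 1. The model held group alone, tests were 2-sided, and p-values were Benjamini-Hochberg adjusted over all genes. Differences are taken as I/R minus sham, and on this scale they understate the change of low genes. An exact permutation test of 3 against 3 cannot go below 0.1 and was not used. The procedure was also run on simulated data with independent noise for each gene, which does not cover a shift shared by a whole library.

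Genes were given by library where the unadjusted p was below 0.05, where groups did not overlap with a log2 fold change of at least 0.5, where the mean was among the 6 highest, or where a planned ratio used them, which gave 23. Eif2s2, Eif2s3x and Eif1a were added after their values were seen. The members, lists, roles and tests were chosen with earlier results of these data known. Promoter windows are from RefSeq. Alternatives were 2 pseudocounts, 3 filters, 3 scalings, limma without trend, the most abundant transcript and leaving out each library.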

Additional observations from a re-analysis of the deposited data

How the results depend on the processing

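Leaving out 1 library at a time gave 3 to 16 genes at an unadjusted p below 0.05 as higher, against 12 with all libraries. The share of all genes then ran from 3.24% to 10.7%. Groups did not overlap as higher in 20 to 34 genes, against 20, beside 12.9% to 26.4% of all genes. As lower they did not overlap in 0 to 2 genes, against 0, beside 8.23% to 10.6% of all genes. The 2 came without sham replicate 1 (3.23%, against 8.98% of all genes). There was 1 each without sham replicates 3 and 5 (1.61%, against 10.6% and 9.18%). The count of 16 (25.8%, against 5.11% of all genes) and the count of 34 (54.8%, against 16.5%) came without sham replicate 5. With 5 libraries, groups separate more readily by construction. The Eef2 log2 fold change turned to -0.06 after median-ratio scaling and -0.02 after quantile normalization, and ran from -0.03 (without sham replicate 3) to 0.20 with 1 library left out. That of Eif6 turned to -0.04 after median-ratio scaling and ran from -0.09 (without I/R replicate 9) to 0.25, with -0.02 without sham replicate 1, and that of Eif4a2 turned to 0.32 with the most abundant transcript, and the cause was not tested. In 0 of the 16 alternatives did a gene of the set pass an adjusted p of 0.05. The other 356 values of the named genes kept their direction and their side of that threshold. The median log2 fold change of the set, 0.27 as reported, was 0.14 after median-ratio scaling and 0.18 to 0.35 with 1 library left out. After median-ratio scaling, 8 genes (12.9%, against 3.81% of all genes) had an unadjusted p below 0.05 as higher. There, 14 (22.6%, against 7.34%) were separated as higher. With the most abundant transcript the first count was also 8 (12.9%, against 5.09%). No paired analysis was possible because the groups share no replicate number. The depth of the libraries is unknown, so what it limits could not be given.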
